A study of Mus musculus with 4 samples.

Results

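Genes that encode subunits of the mitochondrial respiratory chain and of ATP synthase were compared between the atrioventricular (AV) junction and the ventricular region of the embryonic mouse heart. They were taken by symbol: every gene with a probe set of 1 annotated symbol that starts with Nduf, Uqcr, Atp5 or Cox4 to Cox8. The succinate dehydrogenase genes Sdha, Sdhb, Sdhc and Sdhd, the cytochrome c1 gene Cyc1 and the cytochrome c gene Cycs were added. This gave 86 of the 12393 genes with such a probe set. Of these 34 belong to complex I, 4 to complex II, 9 to complex III, 16 to complex IV and 17 to complex V, 1 is cytochrome c itself, and 5 with symbols starting Ndufaf are assembly factors of complex I and no subunits. Ndufa4 was kept with complex I by its symbol, although its protein is now assigned to complex IV.

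Both groups were wild-type C57BL/6 tissue taken between embryonic days 10.5 and 11.0, when the valve cushions form at the AV junction and the ventricular wall grows as working muscle. The AV junction and the ventricular region were each dissected and pooled from about 80 hearts, and 230 ng and 250 ng of their RNA were amplified. A pair of Affymetrix MOE430A arrays, called 1a and 1b, was read for each region, so there were 2 arrays per region and 4 in all. The series gives the arrays as duplicates of each region's RNA, so the p-values describe the spread between arrays and not between hearts, and such bulk tissue cannot tell fewer cells of a type from less RNA per cell. A log2 fold is the AV junction minus the ventricular region, intensities are in arbitrary units after scaling every array to a trimmed mean of 500, and a gene passed where limma's Benjamini-Hochberg adjusted p was at most 0.05.

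The respiratory chain moves electrons from NADH through complex I, or from succinate through complex II, to ubiquinone, then through complex III and cytochrome c to complex IV, which hands them to oxygen. Complexes I, III and IV pump protons across the inner mitochondrial membrane, and complex V, the ATP synthase, lets them back to make ATP. Most subunits are encoded in the nucleus and a few in mitochondrial DNA. The adult heart draws nearly all of its ATP from this route, whereas the heart at midgestation still relies much on glycolysis while its mitochondria mature. Some complex IV subunits have a form found in heart and skeletal muscle that is switched on as striated muscle differentiates.

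Most respiratory chain and ATP synthase transcripts read lower in the AV junction. Of the 85 genes tested, 29 were lower, 0 were higher and 56 did not pass. Over all 8410 genes tested, 6.54% were lower and 8.47% higher. The median log2 fold was −0.34, which is 0.788 of the ventricular level, and it was −0.06 over all genes. Log2 folds below 0 were found in 80 of the 85, against 55.2% of all genes. Both AV arrays lay below both ventricular arrays for 66 of them, as for 34.7% of all genes. Before adjustment, 54 had a p under 0.05 and a lower level (limma), and 1, Ndufa6, a p under 0.05 and a higher level, against 17.1% and 15.9% of all genes.

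The differences were small in each gene. Among the 29 that passed, the ventricular level was between 1.28 and 2.32 times the AV level, with a median of 1.45. A difference of at least 1.5-fold was reached by 13 of them and of at least 2-fold by 4, Cox8b, Atp5md, Atp5e and Uqcrc1. Cox8b averaged under the minimum intensity of 100 in the AV junction and entered the test only through its ventricular level, and without it 28 genes were lower and 3 of them by at least 2-fold. Bright probe sets were common: 69 of the 85 genes lay among the 20% of all genes with the brightest probe sets, and 27 of these 69 were lower, while 54 had both AV arrays below both ventricular arrays. In that brightest group as a whole 11.7% of genes were lower, 30.4% had their arrays apart in that direction, 43.0% had a log2 fold below 0 and the median log2 fold was 0.06.

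**Figure D1:**
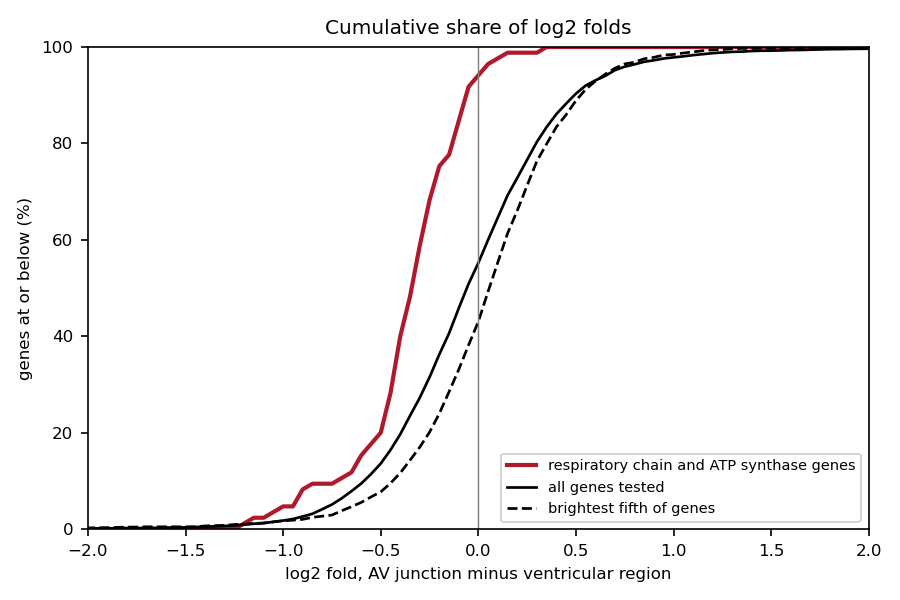
Cumulative share of genes (vertical axis, percent) at or below each log2 fold (horizontal axis, AV junction minus ventricular region) for the 85 respiratory chain and ATP synthase genes, for all 8410 genes tested and for the 20% of genes with the brightest probe sets. The curve of the respiratory genes lies left of both others, with a median of −0.34 against −0.06 and 0.06.

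The shift was present in each pairing of an AV array with a ventricular array. The median log2 difference of the 85 genes was −0.30 for AV 1a against ventricular 1a, −0.44 for AV 1a against ventricular 1b, −0.27 for AV 1b against ventricular 1a and −0.37 for AV 1b against ventricular 1b. Between 71 and 81 of the 85 genes were lower on the AV array. Within a region 61 of the 85 were lower on AV 1a than on AV 1b, and 63 on ventricular 1a than on ventricular 1b. The medians within a region were −0.07 for AV 1a minus AV 1b and −0.11 for ventricular 1a minus ventricular 1b, so the arrays of a region differed less in these genes than any pairing across regions. With an array left out the 29 genes could not change direction, because both AV arrays of each lay below both ventricular arrays. The count of lower genes could change. It was 17 without AV array 1a, 17 without AV array 1b, 9 without ventricular array 1a and 10 without ventricular array 1b, and in each of these fits all 29 genes still had a log2 fold below 0. Scaling the arrays to a common median of log2 values moved the median of all genes from −0.06 to 0.10 and gave 14 lower genes and 1 higher, Ndufa6 (adjusted p = 0.0399). Of all calls over the genes tested, 80.9% were higher with that median scaling, against 56.4% with the trimmed-mean scaling used here. The median of the respiratory genes lay 0.285 below the median of all genes under both the median and the trimmed-mean scaling. This had to be so, because median scaling shifts every log2 fold by the same amount. Quantile normalisation gave 28 lower genes and 1 higher, Ndufa1 (limma adjusted p = 0.0487). Over all genes, 3.4% were lower and 14.4% higher with median scaling, and 5.9% and 7.86% with quantile normalisation.

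**Figure D2:**
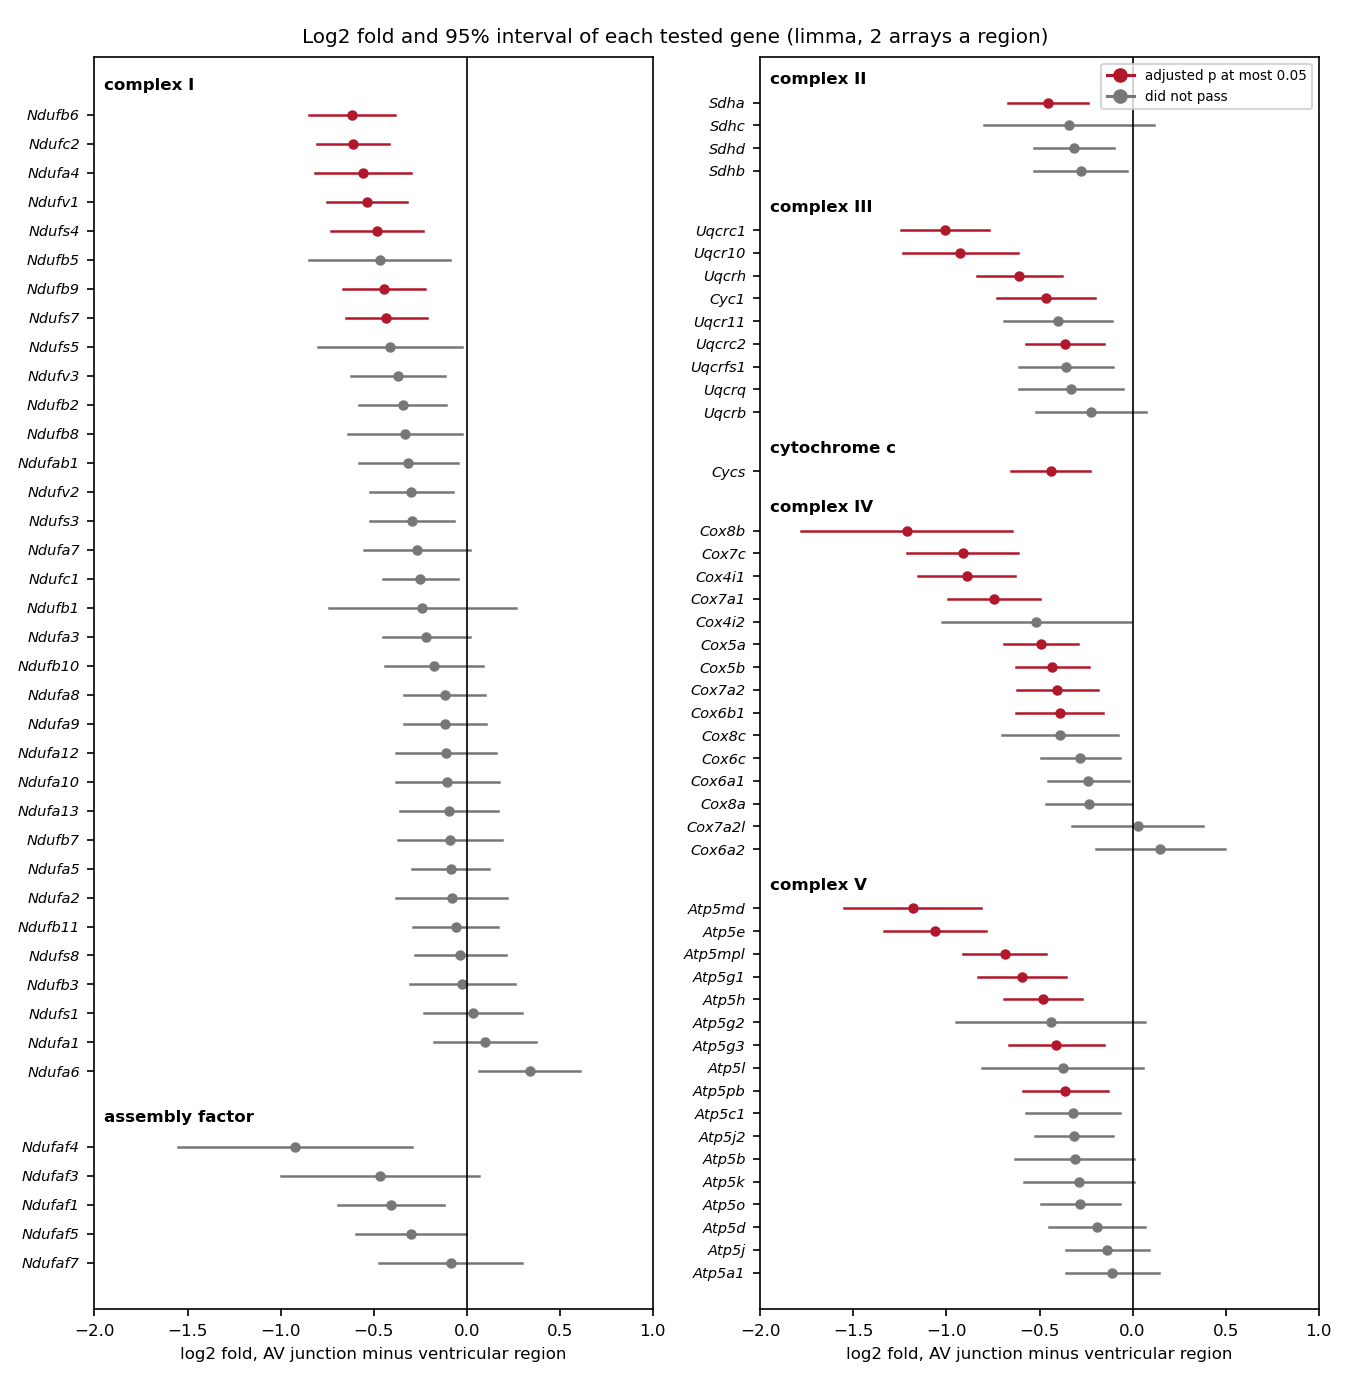
Log2 fold (horizontal axis, AV junction minus ventricular region) of each of the 85 genes tested, grouped by complex. Points are limma estimates, lines their 95% intervals, and the 29 genes in red passed. All 29 lie left of 0, and 5 genes, Ndufs1, Ndufa1, Ndufa6, Cox7a2l and Cox6a2, have an estimate right of 0.

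Complex I passes electrons from NADH to ubiquinone and is the largest of the complexes. Of its 34 genes 7 were lower, 0 higher and 27 did not pass, with 16 lower and 1 higher at an unadjusted p under 0.05 (limma). Its median log2 fold was −0.24, with a range of −0.62 to 0.34. Seen by role, 2 of the 6 core subunits among these 34 genes were lower, as were 5 of the 28 accessory subunits.

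The core subunit gene Ndufv1 encodes the protein that binds NADH and flavin. It gave 4408 and 4641 on the pair of AV arrays, against 6337 and 6827 on the ventricular pair. It fell by 0.53 on the log2 scale (SE 0.09, adjusted p = 0.0111). Ndufs7, whose iron-sulphur cluster passes electrons on to ubiquinone, read 3415 and 3708 in the AV junction and 4768 and 4860 in the ventricular region (log2 fold −0.43, adjusted p = 0.0241). The arrays of the regions did not overlap for either gene. The other core genes did not pass. Ndufv2 gave a log2 fold of −0.30 and Ndufs3 of −0.29, while Ndufs8 at −0.03 and Ndufs1 at 0.04, both iron-sulphur proteins, had overlapping arrays. The 95% interval of Ndufs1, which carries several iron-sulphur clusters, ran from −0.23 to 0.30, and that of Ndufs8 from −0.28 to 0.21.

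Among the accessory genes, Ndufc2, of the membrane arm, measured 11790 and 12170 in the AV junction, against 18280 and 18310 in the ventricular region. Its ventricular level was 1.53 times its AV level (adjusted p = 0.00482). Ndufb6, also of the membrane arm, read 4160 and 3717 against 6272 and 5847 (log2 fold −0.62, adjusted p = 0.00918). For both genes the AV arrays lay below the ventricular pair. Ndufa4 gave −0.56 (adjusted p = 0.0178), Ndufs4, whose loss causes Leigh syndrome in people, −0.48 (adjusted p = 0.0254), and Ndufb9 −0.45 (adjusted p = 0.0232). The other 23 accessory genes did not pass and ranged from −0.47 for Ndufb5 to 0.34 for Ndufa6. Ndufa6 had the highest estimate of the complex, with 1473 and 1359 in the AV junction and 1048 and 1174 in the ventricular region (log2 fold 0.34, adjusted p = 0.0951). Its arrays did not overlap and lay in the opposite order to those of Ndufc2 and Ndufb6, yet it did not pass.

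Complex II is the succinate dehydrogenase that also works in the citric acid cycle, and it is made only of nuclear-encoded subunits. Of its 4 genes 1 was lower, 0 higher and 3 did not pass, although at an unadjusted p under 0.05 there were 3 lower and 0 higher (limma). Sdha, the flavoprotein that oxidises succinate, stood at 4424 and 4658 on AV arrays, against 6009 and 6484 on ventricular arrays (log2 fold −0.45, SE 0.09, adjusted p = 0.0194). The iron-sulphur subunit gene Sdhb gave −0.28 (adjusted p = 0.125) and the membrane anchor genes Sdhc and Sdhd −0.34 (adjusted p = 0.267) and −0.31 (adjusted p = 0.064). Sdhc was the only one of the 4 whose arrays overlapped between regions, with 481.5 and 412.6 against 475.7 and 702.3. A second, dimmer probe set of Sdhd gave −0.66 and passed (adjusted p = 0.0242).

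Complex III takes electrons from ubiquinone to cytochrome c. Of its 9 genes 5 were lower, 0 higher and 4 did not pass, and all 9 log2 folds were below 0, with a median of −0.40. At an unadjusted p under 0.05 limma gave 8 lower and 0 higher. Uqcrc1, a core protein of the complex on the matrix side, gave 1079 and 1137 on the pair of AV arrays, against 2256 and 2295 on the ventricular pair. The regions were far apart compared with the spread of either pair, and the ventricular level was 2.01 times the AV level (log2 fold −1.01, SE 0.10, adjusted p = 0.00143). The other core protein gene, Uqcrc2, differed less, with 14200 and 15520 against 18810 and 19440 (log2 fold −0.36, adjusted p = 0.0374).

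Of the electron carriers of the complex, Cyc1 passed and Uqcrfs1 did not. Cyc1, which encodes its haem protein cytochrome c1, gave a log2 fold of −0.47 (adjusted p = 0.0351), and Uqcrfs1, the Rieske iron-sulphur protein, −0.36 (adjusted p = 0.0694). Of the small subunits, Uqcr10 measured 967.1 and 1210 in the AV junction, against 2021 and 2179 in the ventricular region (log2 fold −0.92, adjusted p = 0.00573). Uqcrh, the hinge protein that helps cytochrome c bind, read 1486 and 1428 against 2244 and 2247 (log2 fold −0.61, adjusted p = 0.00935). Both had AV pairs below their ventricular pairs. Uqcr11, Uqcrq and Uqcrb gave −0.40, −0.33 and −0.22 and did not pass. Cycs, the mobile carrier between complexes III and IV that also triggers apoptosis once outside the mitochondrion, read 15800 and 14570 in the AV junction and 21240 and 19960 in the ventricular region (log2 fold −0.44, adjusted p = 0.021).

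Complex IV, cytochrome c oxidase, reduces oxygen to water. Of its 16 genes 15 were tested, of which 8 were lower, 0 higher and 7 did not pass. Its median log2 fold was −0.40, and limma gave 13 lower and 0 higher at an unadjusted p under 0.05. Cox4i1, the general form of the largest nuclear-encoded subunit, at which ATP acts to slow the enzyme, stood at 9650 and 9059 on AV arrays, against 15820 and 19100 on ventricular arrays. The ventricular level was 1.85 times that of the AV junction (log2 fold −0.89, SE 0.11, adjusted p = 0.00339). Cox7c, a small membrane subunit, read 495.9 and 446.8 against 956.8 and 904.5 (log2 fold −0.91, adjusted p = 0.00549). For both genes the lower ventricular array was above the higher AV array by a wide margin. Cox5a, Cox5b and Cox6b1 are further general subunit genes, which gave log2 folds of −0.49 (adjusted p = 0.0114), −0.43 (adjusted p = 0.0176) and −0.39 (adjusted p = 0.042).

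Of the 3 muscle forms of complex IV subunits measured, Cox7a1 and Cox8b were lower, and Cox8b entered the test only through its ventricular level. Cox7a1, the heart and skeletal muscle form of subunit VIIa, gave 1377 and 1513 on the pair of AV arrays, against 2371 and 2542 on the ventricular pair (log2 fold −0.75, SE 0.11, adjusted p = 0.00562). Cox8b, the muscle form of subunit VIII in rodents, was a dim probe set with 73.4 and 58.7 against 245 and 194.5 (log2 fold −1.21, SE 0.24, adjusted p = 0.0185). Cox6a2, the muscle form of subunit VIa, did not pass. It read 2249 and 2891 against 2089 and 2524, the arrays overlapped, and its log2 fold of 0.15 had a 95% interval of −0.20 to 0.49. Without AV array 1b it was −0.03, so its direction is not settled. The general forms of the same subunits gave −0.40 for Cox7a2 (adjusted p = 0.0308), −0.23 for Cox8a (adjusted p = 0.159) and −0.24 for Cox6a1 (adjusted p = 0.13), which turned to 0.02 with quantile normalisation. The difference in fold between a muscle form and its general form was not tested.

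The remaining genes of the complex showed no call. Cox4i2, the form of subunit IV known from lung and low oxygen, read 129.3 and 190.4 in the AV junction and 253.5 and 241.1 in the ventricular region (log2 fold −0.52, adjusted p = 0.153). Cox6c, a small subunit with a general form, gave −0.28 (adjusted p = 0.0809). Cox8c, known from testis, gave −0.39 (adjusted p = 0.0946). Cox6b2, the testis form of subunit VIb, read 29.5, 42.9, 19.4 and 48 over the 4 arrays, under the minimum of 100 set on mean intensity, and was not tested. Cox7a2l, whose protein joins complexes III and IV into supercomplexes, read 17080 and 21750 against 16810 and 21260 on its brightest probe set (log2 fold 0.03, adjusted p = 0.915). A dimmer probe set of Cox7a2l gave −0.47 and passed (adjusted p = 0.0349), so its probe sets disagree.

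**Figure D3:**
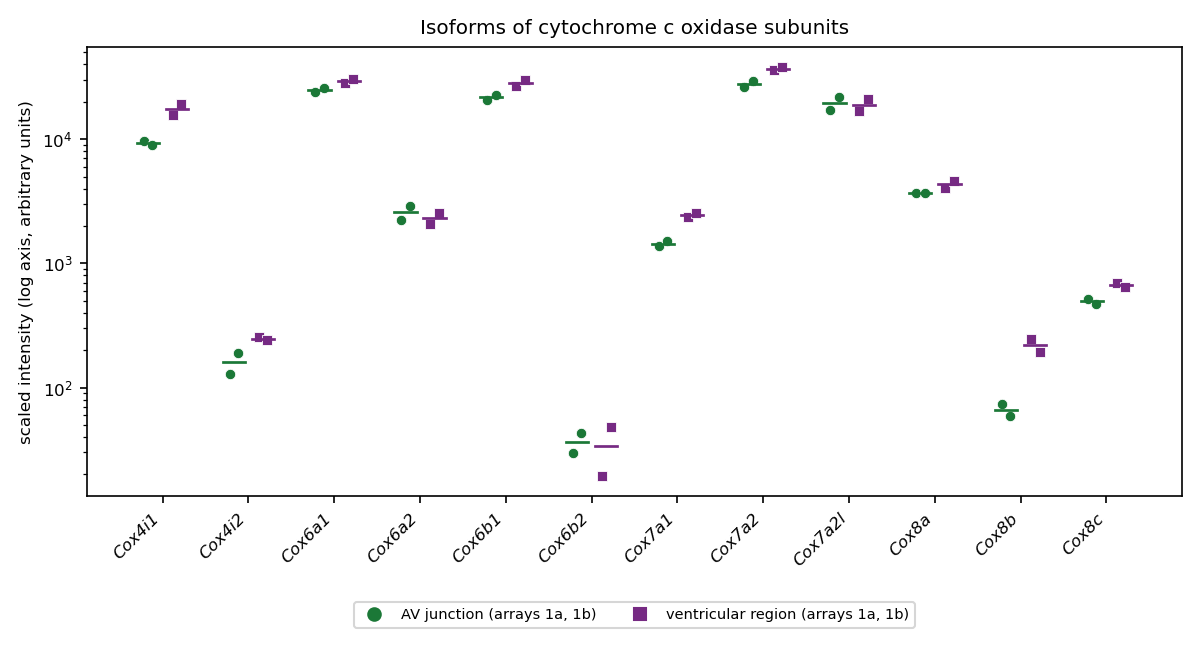
Scaled intensity (vertical axis, log scale) of genes for alternative forms of complex IV subunits on the AV arrays (green circles, left) and the ventricular arrays (purple squares, right); bars are means of 2 arrays. All genes shown separate by region except Cox6a2, Cox7a2l and the untested Cox6b2, which overlap. Of those that separate, Cox4i2, Cox6a1, Cox8a and Cox8c did not pass. Heights of different genes are not comparable.

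Complex V makes ATP. All 17 of its genes had a log2 fold below 0, with a median of −0.36; 7 were lower, 0 higher and 10 did not pass, with 10 lower and 0 higher at an unadjusted p under 0.05 (limma). Differences in fold between complexes were not tested. In the catalytic head 1 of 5 genes was lower. Atp5e, the small epsilon subunit at the foot of the rotating stalk, measured 1014 and 1094 in the AV junction, against 2096 and 2421 in the ventricular region (log2 fold −1.06, SE 0.12, adjusted p = 0.00201). The catalytic beta subunit gene Atp5b gave −0.31 (adjusted p = 0.168), the alpha subunit gene Atp5a1 −0.11 (adjusted p = 0.519), and Atp5c1 and Atp5d −0.32 and −0.19. A dimmer probe set of Atp5c1 passed at −0.68 (adjusted p = 0.0276).

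The membrane part of the ATP synthase holds the ring of c subunits that protons turn. Its 3 genes, Atp5g1, Atp5g2 and Atp5g3, encode the same mature protein with different targeting sequences. Atp5g1 read 1144 and 1136 in the AV junction and 1746 and 1745 in the ventricular region (log2 fold −0.59, adjusted p = 0.0111). Atp5g3 gave −0.41 (adjusted p = 0.0478), and Atp5g2 −0.44 with overlapping arrays (adjusted p = 0.211). The small membrane subunit gene Atp5md, which helps synthase dimers form, read 2124 and 1959 against 5565 and 3955, and Atp5mpl, another small membrane subunit, 3505 and 3784 against 5671 and 6136. Both passed, with log2 folds of −1.18 (SE 0.16, adjusted p = 0.00451) and −0.69 (adjusted p = 0.00518), and the ventricular arrays of Atp5md differed more from each other than those of Atp5mpl. The other small membrane subunit genes, Atp5l, Atp5j2 and Atp5k, gave −0.38, −0.31 and −0.29 and did not pass. Of the peripheral stalk, which holds the head still, Atp5h gave −0.48 (adjusted p = 0.0151) and Atp5pb −0.36 (adjusted p = 0.0496), while Atp5o at −0.28 and Atp5j at −0.14 did not pass.

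Leaving out an array leaves 1 array in its region, which is then assumed to vary like the pair of the other region. Of the 29 lower genes, 9 passed whichever array was left out: Uqcrc1, Atp5e, Atp5md, Cox4i1, Ndufc2, Atp5mpl, Uqcr10, Cox7a1 and Cox7c. Another 8 passed in 1 to 3 of those 4 fits and 12 in none, Sdha, Cycs, Cyc1, Uqcrc2, Cox5b, Cox6b1, Cox7a2, Ndufb9, Ndufs7, Atp5h, Atp5pb and Atp5g3, whose adjusted p reached 0.0958 to 0.23. Of the 8, Ndufb6 passed in 3, Uqcrh and Atp5g1 in 2, and Ndufv1, Cox5a, Ndufa4, Cox8b and Ndufs4 in 1. All of the 29 had log2 folds below 0 in every such fit. Both AV arrays of each lay below both ventricular arrays, so this was fixed in advance.

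**Figure D4:**
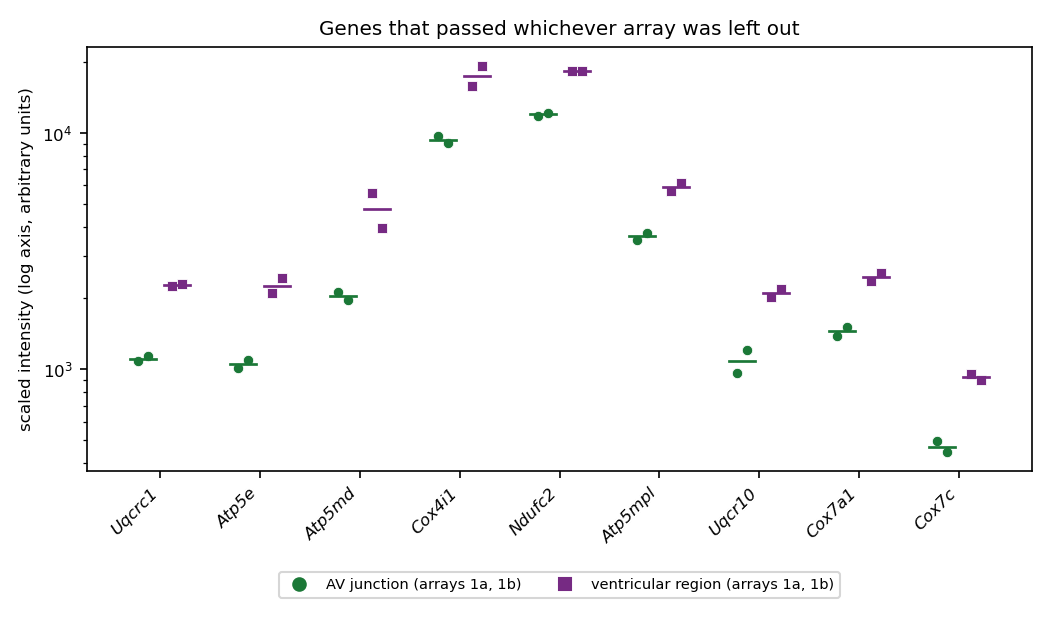
Scaled intensity (vertical axis, log scale) of the 9 genes that passed whichever array was left out, on the AV arrays (green circles, left) and the ventricular arrays (purple squares, right); bars are means of 2 arrays. Every AV array lies below both ventricular arrays of its gene, and heights of different genes are not comparable.

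Second probe sets bore on the same genes. Of the 86 genes 46 had several probe sets, and 67 probe sets other than the one used were tested. Log2 folds below 0 were found in 65 of them, and 18 were lower and 0 higher (limma), against 6.58% lower of all probe sets tested. For the 16 lower genes with another tested probe set, all 24 such probe sets were below 0 and 10 passed. Among those that did not, a dimmer probe set gave −0.13 for Ndufc2 (adjusted p = 0.406), −0.06 for Atp5pb (adjusted p = 0.76) and −0.02 for Cox5b (adjusted p = 0.905). Another 8 genes, Atp5c1, Atp5j2, Atp5k, Cox7a2l, Ndufab1, Ndufb5, Ndufv2 and Sdhd, did not pass on the probe set used and passed on a dimmer one. Of the 29 lower genes 7 were read by a probe set ending in _x_at or _s_at, which may also detect related transcripts such as processed pseudogenes.

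Other genes of mitochondrial energy supply were counted by list, and differences between lists were not tested. In all lists together 8 of 88 genes were lower, which is 9.09%, and 1 was higher, or 1.14%, against 6.54% and 8.47% of all genes. A mitochondrially encoded subunit of complex I was measured, ND5, and it stood at 11080 and 9771 on AV arrays, against 16820 and 14240 on ventricular arrays (log2 fold −0.57, adjusted p = 0.0184). Among 28 tested assembly factors without the Ndufaf symbols 1 was lower, Uqcc2 of complex III (log2 fold −0.47, adjusted p = 0.0249), 0 were higher and 27 did not pass, with a median of −0.13. The 5 Ndufaf genes gave 0 calls and had log2 folds from −0.92 to −0.09, with 3 lower and 0 higher at an unadjusted p under 0.05 (limma). The lowest, Ndufaf4, differed between its AV arrays, with 1378 and 2706 against 3428 and 4004 (adjusted p = 0.0624).

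Carriers that move ATP out of the mitochondrion and phosphate in gave no calls. Of 8 tested genes of these carriers, the porins, the uncoupling proteins and the ATP synthase inhibitor, 0 were lower and 0 higher, with 1 and 0 at an unadjusted p under 0.05 (limma), and their median log2 fold was −0.16. The phosphate carrier gene Slc25a3 read 21770 and 25890 in the AV junction and 24940 and 29200 in the ventricular region (log2 fold −0.18, adjusted p = 0.328). Slc25a4, the adenine nucleotide carrier of heart and muscle, read 18090 and 19450 against 19750 and 21440 (log2 fold −0.13, adjusted p = 0.355). The estimates turned to 0.04 for Slc25a3 and 0.06 for Slc25a4 with quantile normalisation, so neither has a settled direction.

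Of 14 genes of ubiquinone synthesis and other electron entry, 2 were lower, 0 higher and 12 did not pass (median −0.19). They were Coq9 (log2 fold −0.59, adjusted p = 0.0235) and Coq10a (−1.05, adjusted p = 0.0454), which both act on ubiquinone; Coq10a was above background on 1 of its 2 AV arrays, and it entered the test only through its ventricular level. Among 19 genes of mitochondrial import, chaperones and dynamics 4 were lower, 0 higher and 15 did not pass (median −0.16). The lower ones were the import genes Timm50 (−0.98, adjusted p = 0.013), Tomm20 (−0.66, adjusted p = 0.00877) and Timm44 (−0.48, adjusted p = 0.0173) and the chaperonin gene Hspe1 (−0.75, adjusted p = 0.0089).

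Regulators of mitochondrial genes centred on 0. Of 18 tested, 0 were lower, 1 higher (5.56%) and 17 did not pass, with a median of −0.01. Over all genes 6.54% were lower and 8.47% higher. At an unadjusted p under 0.05 there were 0 lower and 3 higher (limma), against 17.1% and 15.9% of all genes. The higher gene was Tfb1m, which modifies the RNA of the mitochondrial ribosome, with 1382 and 1219 in the AV junction, against 724.8 and 674.8 in the ventricular region (log2 fold 0.85, adjusted p = 0.00604). It ran opposite to the subunits. Ppargc1a, the co-activator that drives mitochondrial growth, gave −0.14 (adjusted p = 0.474), Tfam, which packs and transcribes mitochondrial DNA, 0.02 (adjusted p = 0.925), and Nrf1, a factor of respiratory gene promoters, 0.11 (adjusted p = 0.653). Gabpa, of the ETS factors, gave 0.41 (adjusted p = 0.115), the zinc finger factor Yy1 0.31 (adjusted p = 0.0773), and the oestrogen-related receptors Esrra and Esrrg −0.43 (adjusted p = 0.273) and −0.44 (adjusted p = 0.164). None of these passed, and all but Tfb1m were chosen for the text after their values were seen.

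**Figure D5:**
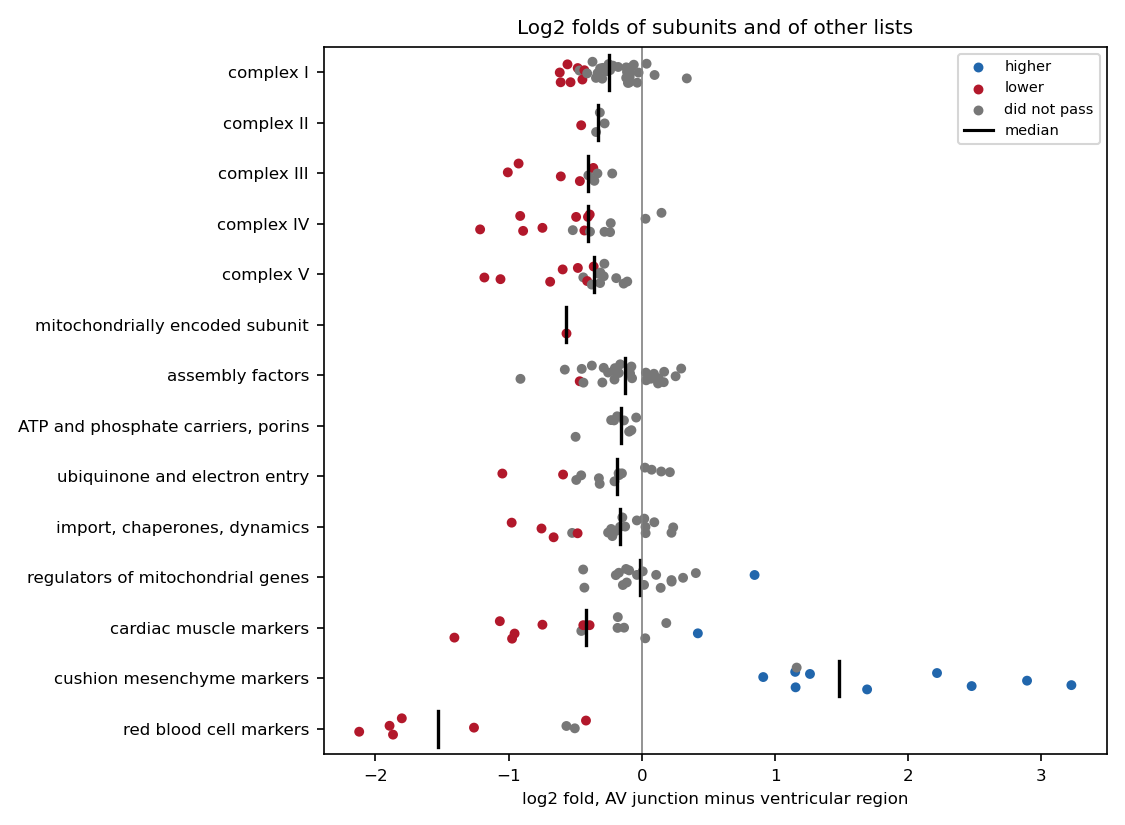
Log2 folds (horizontal axis, AV junction minus ventricular region) of the subunits by complex, of other mitochondrial lists and of cell markers. Each point is a gene, coloured by whether it was higher, lower or did not pass, and black bars are medians. Medians of complexes I to V lie between −0.40 and −0.24, that of the regulators at −0.01 and that of the cardiac muscle markers at −0.42.

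Markers of cell types differed between the regions on the same arrays. Of 14 cardiac muscle genes 7 were lower in the AV junction, 1, Myl7, higher and 6 did not pass, with a median log2 fold of −0.42. Their summed intensity was 160100 and 167400 in the AV junction, against 223300 and 247100 in the ventricular region. Most of that gap came from the bright genes Myl2, Myl3 and Myh7, with log2 folds of −1.41, −1.07 and −0.97. Myl2 is also counted among the ventricular genes below. The genes that did not pass were Nkx2-5 (−0.45), Actc1 (−0.18), Tnni3 (−0.18), Myl4 (−0.13), Ttn (0.03) and Myh6 (0.18). Of 10 cushion mesenchyme genes 9 were higher and 0 lower, with summed intensities of 18990 and 16460 against 5896 and 5968. Of 8 red blood cell genes 6 were lower and 0 higher, with 41440 and 42630 against 77800 and 85110. Of 6 endothelial genes 2 were higher and 1 lower, with 2606 and 3039 against 1971 and 2154, and of 5 serum protein genes of liver and yolk sac 4 were higher and 0 lower, with 7411 and 6996 against 574.6 and 548.3, where Afp read 17.1 and 18.8 on the ventricular arrays. The part of these differences in the lower respiratory transcripts was not tested. Markers of the regions followed the labels. All 4 AV canal genes (Bmp2, Tbx2, Tbx3 and Msx2) were higher and all 4 ventricular genes (Nppa, Irx4, Myl2 and Hand1) lower. Of the genes higher in the AV junction, Prrx1, Twist1, Ttr, Afp, Msx2 and Tbx2 averaged under 100 in the ventricular region and entered the test through their AV level.

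Promoters of respiratory genes are known to share sites for the factors NRF1 and GABPA, and windows of 300 bases, from 250 bases before to 50 after the start of transcription, were searched for their letters on both strands. The windows are RefSeq's for the mouse assembly GRCm38.p6 and hold 71 of the 86 genes, in 76 windows. The NRF1 letters, GCGCA and then GCGC with any base between them, were found in 22.4% of these windows and in 4.6% of all 32851 windows of the table. The ETS letters CCGGAAG, which GABPA binds, were found in 23.7% against 8.86%, the YY1 letters AANATGGCG in 11.8% against 2.38%, the oestrogen-related receptor letters TCAAGGTCA in 2.63% against 0.423%, and the SP letters GGGCGG in 43.4% against 35.7%. Among the 24 windows of genes that were lower, 4 (16.7%) held the NRF1, 6 (25%) the ETS and 2 (8.33%) the YY1 letters. The oestrogen-related receptor letters were in 1 (4.17%) and the SP letters in 7 (29.2%). Among the 51 windows of tested genes that did not pass, the counts were 13, 12, 7, 1 and 25 in the same order. The shares were 25.5%, 23.5%, 13.7%, 1.96% and 49%. The SP share thus lay below that of all windows in genes that were lower and above it in genes that did not pass, and the difference was not tested. A match of letters is a description and not a site of binding.

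Lower genes with the NRF1 letters were Uqcrc1, Sdha, Atp5g3 and Atp5h, and their windows are printed because they show how the motif is placed in genes of complexes III, II and V. The Uqcrc1 window is chr9:108936398-108936697 on the plus strand, that of Sdha chr13:74350191-74350490, that of Atp5g3 chr2:73911277-73911576 and that of Atp5h chr11:115419870-115420169, the last 3 on the minus strand, all in GRCm38.p6. Each is written 5′ to 3′ along the gene, and capitals mark every match. The matches are 2 of NRF1 in Uqcrc1, both after the start of transcription, and 3 of NRF1 in Sdha, all before it. In Atp5g3 a match of the oestrogen-related receptor letters comes before the start and 1 of NRF1 after it, and in Atp5h 1 of NRF1 and then 1 of ETS come before it.
Uqcrc1: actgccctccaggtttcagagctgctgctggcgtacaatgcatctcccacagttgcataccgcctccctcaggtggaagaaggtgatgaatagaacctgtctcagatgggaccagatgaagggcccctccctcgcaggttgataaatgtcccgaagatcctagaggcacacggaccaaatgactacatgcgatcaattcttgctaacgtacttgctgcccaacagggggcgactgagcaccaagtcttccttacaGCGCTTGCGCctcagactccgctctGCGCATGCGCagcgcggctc
Sdha: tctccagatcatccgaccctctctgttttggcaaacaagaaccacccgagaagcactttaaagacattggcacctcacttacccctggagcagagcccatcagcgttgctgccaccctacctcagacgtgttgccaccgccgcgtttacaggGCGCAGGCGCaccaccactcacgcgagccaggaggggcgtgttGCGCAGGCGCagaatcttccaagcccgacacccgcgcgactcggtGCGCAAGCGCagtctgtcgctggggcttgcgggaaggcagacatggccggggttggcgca
Atp5g3: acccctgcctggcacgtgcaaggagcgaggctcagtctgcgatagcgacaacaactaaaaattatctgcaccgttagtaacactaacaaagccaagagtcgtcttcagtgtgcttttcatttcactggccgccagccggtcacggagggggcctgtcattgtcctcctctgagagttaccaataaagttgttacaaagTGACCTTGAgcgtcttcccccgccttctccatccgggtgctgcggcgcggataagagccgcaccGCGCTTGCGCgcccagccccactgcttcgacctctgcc
Atp5h: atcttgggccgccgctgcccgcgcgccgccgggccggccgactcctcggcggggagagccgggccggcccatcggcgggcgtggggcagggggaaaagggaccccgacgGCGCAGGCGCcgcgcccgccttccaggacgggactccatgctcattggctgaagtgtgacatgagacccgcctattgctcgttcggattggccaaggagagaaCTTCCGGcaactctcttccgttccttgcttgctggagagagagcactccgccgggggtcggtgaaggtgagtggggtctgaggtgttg
Uqcrc1, with 2 matches of NRF1, was lower by a log2 fold of 1.01, and Sdha, with 3, by 0.45. Atp5g3 and Atp5h, with fewer, were lower by 0.41 and 0.48. A relation of matches to folds was not tested. Cox7a1, Cox7c, Ndufc2 and Uqcr10, chosen after their values were seen and lower by 0.75, 0.91, 0.61 and 0.92, held none of the 5 motifs in their windows. The other lower genes with none were Cox8b, Atp5g1, Ndufa4, Ndufv1 and Cox5b. Their log2 folds were −1.214, −0.594, −0.558, −0.535 and −0.431.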

How the data were processed

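Intensities on a linear scale, 1 per probe set and array, were deposited by the authors, who made them with MAS5 per the submitters' processing notes; version and detection calls are not given in the sources used here. The deposited intensities have trimmed means between 149.08 and 149.21. Each array was brought to the same mean of 500, taken over the 22626 probe sets that are no controls after trimming 2%. The 13403 probe sets averaging at least 100 were kept. Region was the sole term of a limma 3.58.1 fit (R 4.3.3, lmFit and eBayes, trend on) to log2 of intensity after adding 50, and the Benjamini-Hochberg adjustment ran over all of them. Folds include the added 50 and so understate changes of dim genes. For each gene the probe set highest in mean log2 was used; symbols come from the platform annotation, and 20351 of 20380 were found by Entrez id in a RefSeq table. Background was the brightest Bacillus control of each array, 52.6 to 104, and all 85 genes lay above it on 4 of 4 arrays. No genome build is named for the arrays.

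Members and lists were chosen with earlier results of these data known. Named genes are all members that passed, the succinate dehydrogenase genes, cytochromes c and c1, and subunit forms. Up to 4 passing genes per list by size of change were also named, or else the 2 with the brightest probe sets. Other members were named, after their values were seen, to complete a complex. The arrays shared chip lot, protocol and scan day, and each had its own fluidics module. Alternatives were other scalings, pseudocounts of 1 and 200, no floor or 300, a replicate block, each array left out, other choices of probe set, eBayes without trend and treat with a fold of 1.2. Precision is limited by 2 arrays per region, for which an exact permutation test cannot give a p under 0.333. Figures used matplotlib 3.10.9.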

Additional observations from a re-analysis of the deposited data

How the results depend on the processing

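The 29 lower respiratory genes became 14 with median scaling, 16 with no floor, 8 with eBayes without trend, 9 with limma's treat at a minimum fold of 1.2, and 9 to 17 with 1 array left out, when the median log2 fold lay between −0.38 and −0.28. Quantile normalisation gave 28 lower, values as deposited 34, pseudocounts of 1 and 200 gave 28 and 30, a floor of 300 gave 32, the mean over a gene's probe sets 36, the highest linear mean 30, and leaving out _x_at and _s_at probe sets 25. The 0 higher genes became 1 with quantile normalisation (Ndufa1, adjusted p = 0.0487) and 1 with median scaling (Ndufa6). With median scaling the median log2 fold was −0.19. The share lower over all genes, 6.54% in the main fit, moved with the settings as well. It was 3.4% with median scaling, 2.17% with no floor, 2.49% without trend and 1.8% with treat. It was 10.4% as deposited, 10.2% with a floor of 300 and 10.1% with the replicate block. The other settings with all 4 arrays gave 5.9% to 7.56%. Respiratory genes tested were 79 as deposited, 80 with a floor of 300, 86 with no floor and 78 without _x_at and _s_at probe sets. The replicate number as a block gave 49 lower genes and 0 higher; arrays of the same letter share only that letter (their deviations correlated at r = 0.056 across probe sets and 0.16 across the respiratory genes), so this is not a paired design. The other mitochondrial lists together had 8 lower (9.09%, against 6.54% of all genes) and 1 higher of 88 genes. Their lower count was 3 with median scaling, 5 with no floor, 15 with the replicate block, 1 without trend, 0 with treat and 2 to 5 with 1 array left out, and their higher count was 4 with median scaling, 3 with the block and 0 without _x_at and _s_at probe sets. No direction turned among the 29 where they were tested, which for many settings was fixed in advance. The replicate block, eBayes without trend, treat and other floors keep each log2 fold as it was. Leaving out an array or changing the pseudocount keeps the order of arrays that do not overlap. Over the 85 genes tested, those below 0 fell from 80 to 73 with quantile normalisation and to 66 with median scaling. Those with both AV arrays below both ventricular arrays fell from 66 to 62 and 48. Among the genes named by the rule given above, estimates turned for Cox6a1 (0.016), Slc25a3 (0.043) and Slc25a4 (0.059) with quantile normalisation. They also turned for Slc25a4 with median scaling (0.025) and for Cox7a2l as the mean of its probe sets (−0.171). With 1 array left out Cox6a2 ranged from −0.03, without AV array 1b, to 0.326, and Cox7a2l from −0.146, without AV array 1b, to 0.201, and it was −0.141 without ventricular array 1a. The cause of these changes was not tested.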

Other observations

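Probe sets that name several genes took no part in the counts. Of 8 that include a respiratory gene, 4 were lower, 0 higher and 7 had a log2 fold below 0 (limma). Of all probe sets tested 6.58% were lower, and 55.2% of all genes tested had a log2 fold below 0. The probe set shared by Ndufb4, Ndufb4b and Ndufb4c, genes of a membrane arm subunit of complex I, measured 4300 and 4097 in the AV junction, against 6589 and 6645 in the ventricular region (log2 fold −0.65, adjusted p = 0.00457), and a second one gave −0.56 (adjusted p = 0.0228). The probe set of Ndufs6 and Ndufs6b, of the NADH-binding part of complex I, read 4679 and 4731 against 7521 and 6631 (log2 fold −0.58, adjusted p = 0.0103). That of Ndufab1, the acyl carrier protein of mitochondria, and its pseudogene read 8538 and 8481 against 11610 and 11410 (log2 fold −0.43, adjusted p = 0.0163). For these 4 the AV arrays lay below the ventricular arrays.

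Different probe sets of a gene gave unlike sizes in places. The ATP synthase gene Atp5a1 had −0.11 on the probe set used and −0.48 on a dimmer one, and Ndufab1 had −0.31 and −0.89. The opposite was found for Ndufc2, with −0.61 on the probe set used and −0.13 on a dimmer one, and for Atp5pb, with −0.36 and −0.06.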
